A study of Mus musculus with 18 samples.

Results

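The comparison described here sets 6 libraries of cultured mouse cortical neural progenitor cells in which both Upf2 and Trp53 were floxed against 6 libraries in which only Upf2 was floxed, all 12 of them from cells given an adeno-associated virus (AAV9) that carries Cre recombinase. The libraries were taken by their genotype and treatment labels from the 18 of the series, and carry replicate numbers 3, 4, 5, 6, 8 and 9 in each group. The Upf2 Trp53 Cre group is Upf2 fl/fl Trp53 fl/fl and the Upf2 Cre group is Upf2 fl/fl, on the C57BL/6 background. The other 6 libraries, called Upf2 mock below, came from Upf2 fl/fl cells given medium without virus. Floxed Upf2 alleles are common to all 18 cultures, so a culture with intact Upf2 alleles is not part of the comparison. Medium with virus was exchanged 14 h after infection and cells were lysed at 72 h. A mock culture of the doubly floxed line is not analysed here, so loss of Trp53 and any other difference between the 2 lines cannot be told apart. The labels number the cultures as biological replicates without saying which animals they came from, so p-values measure the spread between these cultures.

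UPF2 is a protein needed for nonsense-mediated mRNA decay (NMD), which degrades transcripts with premature stop codons and also many normal transcripts of stress and splicing genes. The p53 protein, encoded by Trp53, is a transcription factor that raises genes of cell cycle arrest and cell death after damage or stress, and it lowers cell cycle genes indirectly, through its target p21 and the DREAM repressor complex. Neural progenitors of the cortex divide to give neurons and glia, and gene loss that arrests or kills them reduces brain size, as in microcephaly. The title of the series poses the question of how NMD and p53 act together on progenitor maintenance.

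Values are TPM, transcript abundances per length that have the same sum in every library. A difference is the mean log2(TPM + 1) of Upf2 Trp53 Cre minus that of Upf2 Cre, so a positive value is higher in Upf2 Trp53 Cre, and for low genes this scale understates the change. Genes are called changed at a Benjamini-Hochberg adjusted p under 0.05 in limma over all 14647 genes that reached 1 TPM in 6 or more of the 12 libraries. A gene can reach this minimum through 1 group alone. The test of a gene that lies under 1 TPM in the other group is then no independent support for its difference. In all, 1406 genes rose and 312 fell, 9.6% and 2.13% of those tested. The median difference of all tested genes was 0.25. Rescaling the libraries by median ratios or by quantiles brought that median to 0.02 and 0.03, and then 221 genes rose and 462 fell, or 290 rose and 454 fell, so the upward share of called genes was 81.8% as deposited against 32.4% and 39.0%. A change is called firm below where it passed in all 3 scalings, which held for 209 rises, 1.43% of the tested genes, and 299 falls, 2.04%. Falls made up 3.15% and 3.1% of tested genes after median-ratio and quantile scaling. In bulk cultures, fewer cells of a type and less RNA per cell cannot be told apart.

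Some libraries stood apart from their group. Upf2 Trp53 Cre replicate 3 was most like Upf2 Cre replicate 3 among all 12 libraries (r = 0.979 across genes), and the replicates numbered 4 were likewise nearest to each other (r = 0.981), while each of the other 8 was nearest to a library of its own group. On the first principal component, with 57.5% of the variance, Upf2 Cre replicate 3 lay at -54.7, among the Upf2 Trp53 Cre libraries at -70.1 to 7.03. In Upf2 Cre replicate 6 a single short RNA gene, Gm23935, held 141092 TPM, against 551 to 20028 TPM in the Upf2 Trp53 Cre libraries. Leaving out 1 library at a time gave between 208 rises (without Upf2 Trp53 Cre replicate 5) and 4868 rises (without Upf2 Cre replicate 3), and between 124 falls (without Upf2 Cre replicate 5) and 1565 falls (without Upf2 Cre replicate 3). Leaving out both libraries numbered 3 gave 4461 rises and 1296 falls. Without replicate 4 of Upf2 Trp53 Cre 3010 genes rose, and without that of Upf2 Cre 2020. Without Upf2 Trp53 Cre replicate 3, 538 rose, and without any one library numbered 5, 6, 8 or 9, 208 to 273. Counts of list members without a library, given below, are to be read beside these counts of the 14647 tested genes. The 9.6% and 2.13% belong to the fit of all 12 libraries.

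The targeted genes were measured first. Trp53 (ENSMUSG00000059552.13, mm10 chr11:69580359-69591873, plus strand) had a lowest, median and highest level of 14.0, 16.7 and 18.4 TPM in Upf2 Trp53 Cre, against 86.6, 143 and 189 TPM in Upf2 Cre and 81.4, 102 and 136 TPM in mock. No Upf2 Trp53 Cre library came near either of the other groups. The Trp53 difference was -2.96 (exact two-sided permutation p = 0.0022, the smallest 6 against 6 libraries can give, adjusted over 2 tests p = 0.0043). Upf2 (ENSMUSG00000043241.14, mm10 chr2:5951469-6056703, plus strand) had 23.5, 33.1 and 44.4 TPM in Upf2 Trp53 Cre, against 14.3, 19.9 and 27.6 TPM in Upf2 Cre and 6.54, 11.02 and 15.8 TPM in mock. The Upf2 level was higher in Upf2 Trp53 Cre by 0.70 with overlapping groups (exact permutation p = 0.013, adjusted p = 0.013; limma adjusted p = 0.042, and 0.12 after median-ratio scaling). A gene-level value counts exons outside a floxed segment too, so the Upf2 level does not measure how many alleles were deleted, and it does not run in the direction of a lost transcript. Within 10 Mb of Trp53, 29 of 292 tested neighbours rose and 6 fell, shares of 9.93% and 2.05%, close to those of all genes.

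**Figure D1:**
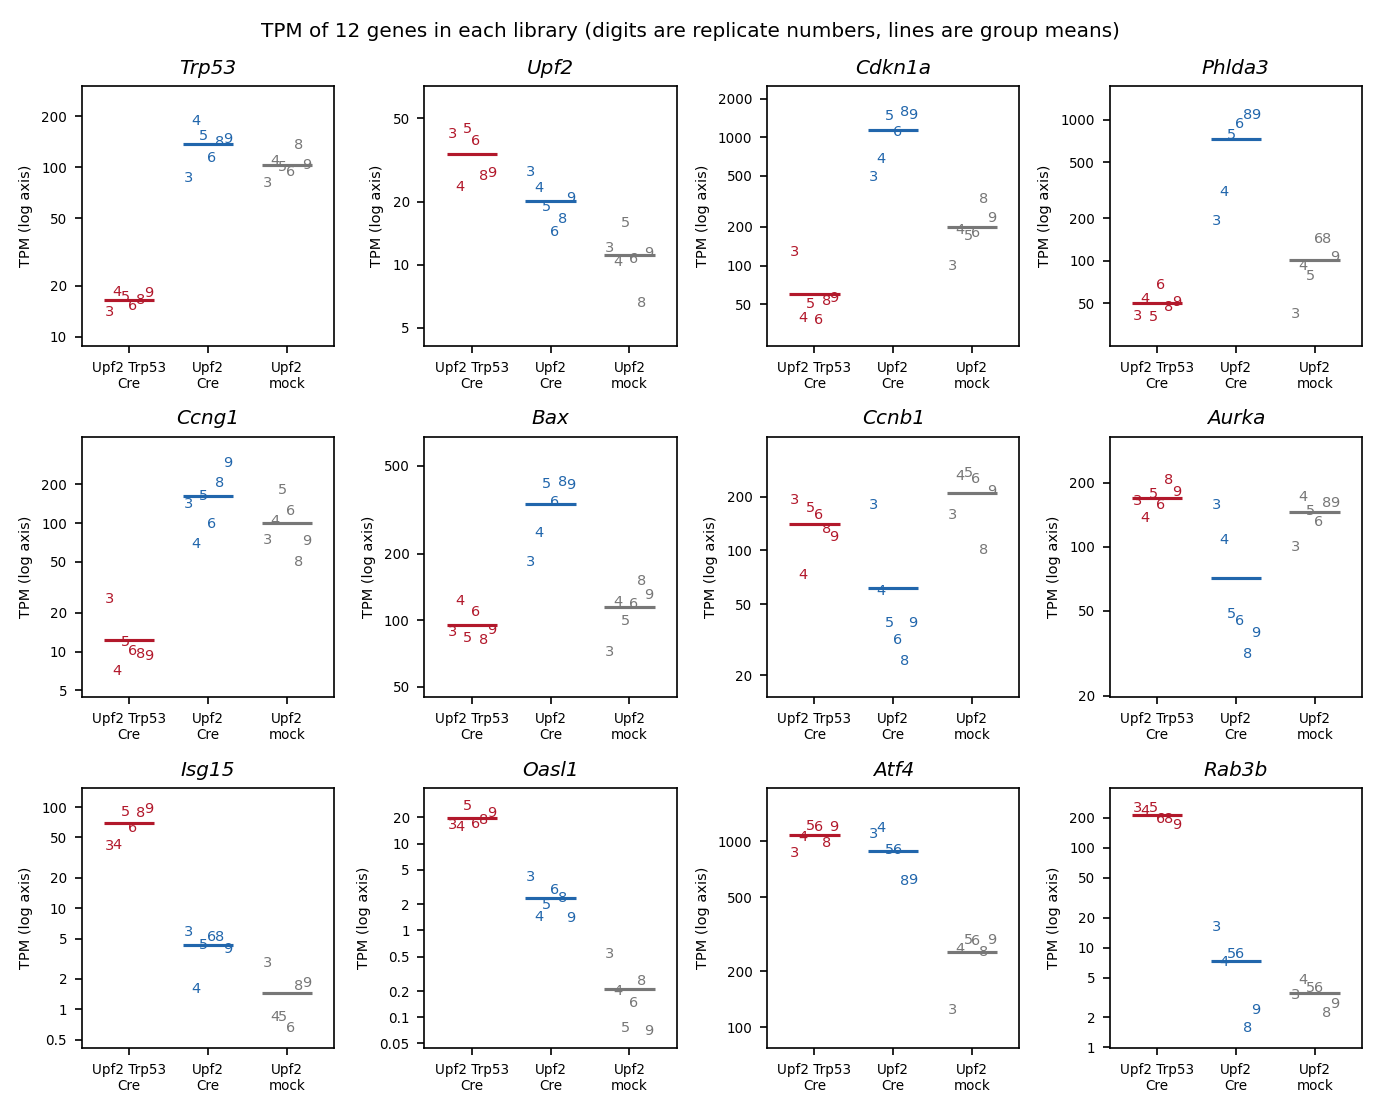
TPM of 12 genes in each library on log axes, with each digit a library shown by its replicate number and each line a group mean; groups run from Upf2 Trp53 Cre to Upf2 Cre to Upf2 mock. Trp53 lies at 14.0 to 18.4 TPM in Upf2 Trp53 Cre and at 86.6 to 189 TPM in Upf2 Cre, and for Ccnb1 the Upf2 Cre library numbered 3, at 178 TPM, lies among the Upf2 Trp53 Cre libraries.

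Transcripts known as p53 targets were lower where Trp53 was floxed as well. Of 47 list members, all of which were tested, 32 fell and 0 rose, against 2.13% and 9.6% of all tested genes, and the list median was -1.34, against 0.25 for all genes. All 32 falls were firm, and in 26 members the groups did not overlap, which held for 1.85% of all tested genes upward and 0.867% downward. The highest difference on the list was 0.54. This list, like the others below, was chosen with earlier results of these data known, so its counts are a description and no independent test. Without any single library between 27 and 35 members fell, and without both libraries numbered 3 the count was 34.

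The largest falls on the list were those of Dcxr, Cdkn1a, Dglucy, Ak1, Phlda3, Eda2r and Ccng1. Cdkn1a (ENSMUSG00000023067.14, chr17:29090976-29100727), which encodes p21, had 37.5, 51.5 and 127 TPM (lowest, median and highest library) in Upf2 Trp53 Cre, against 489, 1286 and 1575 TPM in Upf2 Cre, and 98.3, 184 and 331 TPM in mock. The highest Upf2 Trp53 Cre library, replicate 3, was still far under the lowest Upf2 Cre library, also replicate 3. The Cdkn1a difference was -4.22 ± 0.33 (SE, adjusted p = 1.47e-06). Ccng1, which encodes cyclin G1, averaged 12.2 ± 6.71 TPM in Upf2 Trp53 Cre and 161 ± 80.3 TPM in Upf2 Cre (SD, n = 6 each), with no overlap and a difference of -3.58 (adjusted p = 1.08e-05). Mdm2, whose product marks p53 for degradation, changed less: it averaged 20.8 ± 5.79 TPM in Upf2 Trp53 Cre and 39.1 ± 10.4 TPM in Upf2 Cre, a difference of -0.89 (adjusted p = 0.029), and the call was lost without any one of 7 libraries, with an adjusted p of up to 0.077. Sesn2, a stress-induced brake on the growth kinase mTORC1, fell by 1.32 (adjusted p = 0.016), and Btg2, an antiproliferative gene also used as a marker of neurogenic progenitors, fell by 1.01 (adjusted p = 0.0071).

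Promoters of 3 of these genes are shown because they carry matches to the decamer consensus that makes up p53 response elements, searched on both strands from 250 bases before to 50 bases after each RefSeq start. The sequences are from RefSeq (GRCm38.p6), 5′ to 3′ on the strand of the gene, with the matches in capitals.
Cdkn1a (chr17:29090859-29090978, plus strand): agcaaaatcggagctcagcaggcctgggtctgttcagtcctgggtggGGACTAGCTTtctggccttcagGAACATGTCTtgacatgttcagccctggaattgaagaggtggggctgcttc
Ccng1 (chr11:40755412-40755531, minus strand): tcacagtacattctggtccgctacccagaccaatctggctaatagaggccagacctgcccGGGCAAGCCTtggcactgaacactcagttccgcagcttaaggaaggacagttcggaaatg
Bax (chr7:45467029-45467148, minus strand): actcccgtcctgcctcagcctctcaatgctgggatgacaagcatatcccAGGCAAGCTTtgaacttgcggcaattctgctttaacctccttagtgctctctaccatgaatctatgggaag
At least 1 match was present in 13 of 35 list members with a window (37.1%), against 8.2% of 9858 tested genes with a window and 9.55% of all 27025 genes with a window. A match is a description of letters, not a shown binding site.

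Cell death genes among the p53 targets fell together. Bax, whose product opens the outer mitochondrial membrane, had 81.7, 88.8 and 122 TPM in Upf2 Trp53 Cre and 182, 377 and 422 TPM in Upf2 Cre, without overlap (difference -1.76, adjusted p = 0.00014). Bbc3 and Pmaip1, which encode the BH3-only proteins PUMA and NOXA, fell by 2.47 and 2.33 (adjusted p = 0.00033 and 0.0025), and the death receptor genes Tnfrsf10b and Fas fell by 2.91 and 1.80 (adjusted p = 2.88e-05 and 0.0013). Their Upf2 Trp53 Cre levels, 9.54 ± 3.06 TPM for Bbc3 and 2.08 ± 0.323 TPM for Tnfrsf10b, stood beside mock levels of 12.2 ± 3.18 and 3.37 ± 1.08 TPM, while Upf2 Cre held 61.7 ± 27.3 and 24.7 ± 11.2 TPM (SD, n = 6 each). Of 30 tested apoptosis genes 8 fell and 2 rose, with a median of 0.11. These shares were 26.7% and 6.67%, against 2.13% and 9.6% of all genes. The list shares 6 members with the p53 list. The count of falls went to 5 without Upf2 Trp53 Cre replicate 3, 5, 6, 8 or 9 or Upf2 Cre replicate 5, 6, 8 or 9, and both rises were lost in the other scalings, while 10 rose without Upf2 Cre replicate 3. Without that library 4868 of all 14647 tested genes rose.

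Several of the p53 list members were also among the largest falls of all genes. The 12 largest falls among genes without overlap were Gm8210, Svop, Dcxr, Tma7-ps, Cdkn1a, Gm37795, 9530053A07Rik, Dglucy, Ak1, Phlda3, Eda2r and Ccng1, and all 12 were firm. Of these 12, Dcxr, Cdkn1a, Dglucy, Ak1, Phlda3, Eda2r and Ccng1 are on the p53 target list. Dcxr, which encodes a dicarbonyl and xylulose reductase, had 5.38, 9.04 and 12.01 TPM in Upf2 Trp53 Cre, against 71.6, 556 and 830 TPM in Upf2 Cre and 27.8, 40.3 and 53.9 TPM in mock (difference -5.16, adjusted p = 2.41e-05). Svop, a gene related to a synaptic vesicle transporter, had 0.866, 1.38 and 2.38 TPM in Upf2 Trp53 Cre, against 12.4, 180 and 294 TPM in Upf2 Cre. In both genes the lowest Upf2 Cre library was replicate 3. Ak1, an adenylate kinase gene, averaged 44.9 ± 8.08 TPM in Upf2 Trp53 Cre and 652 ± 223 TPM in Upf2 Cre. The mitochondrial D-glutamate cyclase gene Dglucy averaged 2.05 ± 0.936 TPM in Upf2 Trp53 Cre and 39.5 ± 4.65 TPM in Upf2 Cre (SD, n = 6 each), the narrowest spread among these falls in Upf2 Cre relative to its mean. Phlda3, whose product restrains the kinase AKT, fell by 3.60 and Eda2r, the gene of the ectodysplasin A2 receptor, fell by 3.59 (adjusted p = 4.03e-05 and 4.97e-07). Eda2r differed from Cdkn1a in its mock level, 21.1 ± 6.61 TPM, close to the 23.1 ± 7.64 TPM of Upf2 Cre, against 0.997 ± 0.715 TPM in Upf2 Trp53 Cre. For 9530053A07Rik, Upf2 Trp53 Cre libraries held at most 0.132 TPM and Upf2 Cre libraries 4.03 to 36.4 TPM, so it reached the minimum level through Upf2 Cre alone.

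Gm37795 is a provisional transcript annotation on chromosome 4 (chr4:150068539-150070997, plus strand) that begins directly after the 3p arm of miR-34a, a microRNA known as a p53 target. It had 0.139, 0.277 and 1.35 TPM in Upf2 Trp53 Cre, against 10.98, 23.3 and 32.1 TPM in Upf2 Cre and 5.92, 8.20 and 8.96 TPM in mock (difference -4.04, adjusted p = 1.00e-07). All Upf2 Trp53 Cre libraries lay under all mock libraries. The Mir34a gene row itself was listed at 0 TPM in all 6 Upf2 Trp53 Cre libraries and at 0 to 5.25 TPM in Upf2 Cre, and libraries of long total RNA do not measure mature microRNAs. Both mature arms are shown because the falling transcript lies beside them; sequences are from RefSeq (GRCm38.p6), and capitals mark the seed, bases 2 to 8.
mmu-miR-34a-5p (chr4:150068473-150068494, plus strand): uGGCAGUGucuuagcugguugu
mmu-miR-34a-3p (chr4:150068517-150068537, plus strand): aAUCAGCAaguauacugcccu

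**Figure D2:**
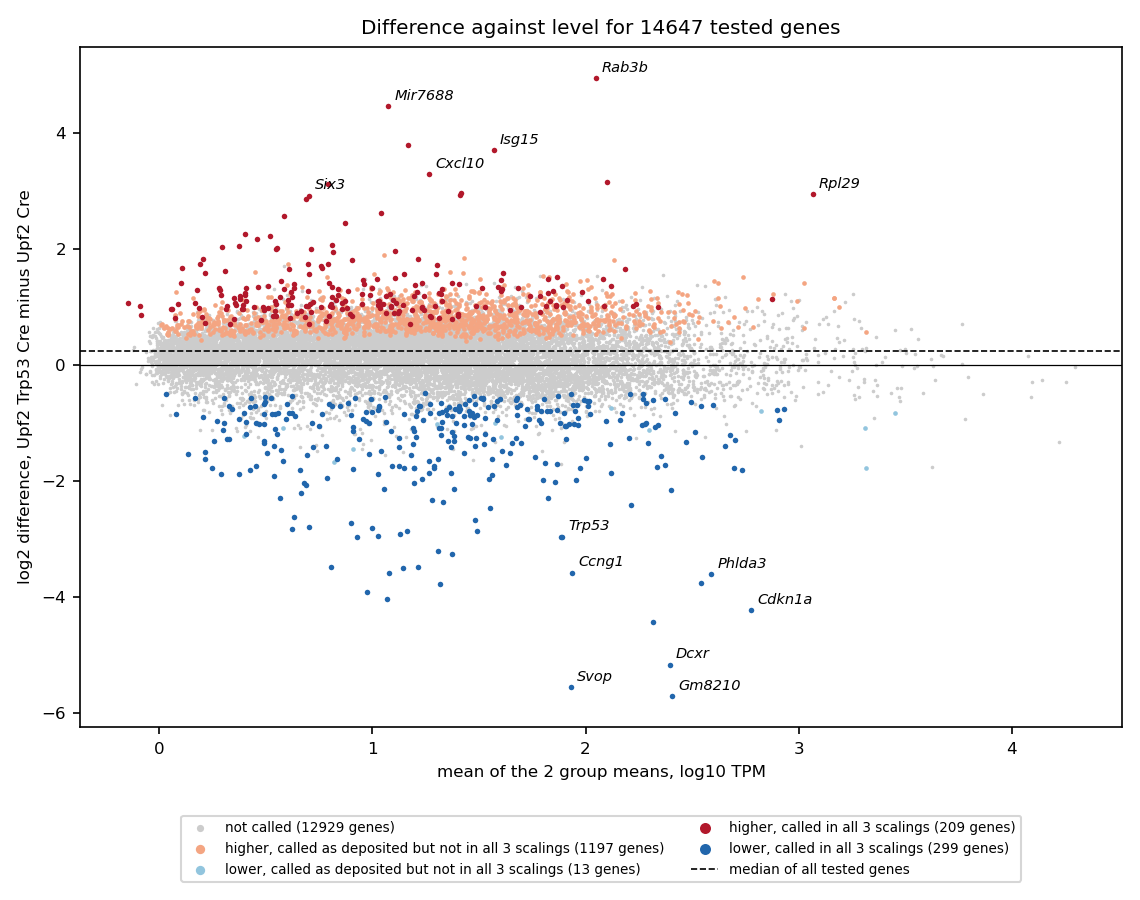
Log2 difference of Upf2 Trp53 Cre minus Upf2 Cre (vertical axis) against the mean level in log10 TPM (horizontal axis) for the 14647 tested genes, coloured by call. The dashed line marks the median of all genes at 0.25, and most of the 1197 orange points, genes called up as deposited but not in all 3 scalings, lie near a difference of 1 or below.

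Genes of cell division were higher in Upf2 Trp53 Cre. In the G2 and M phase list 42 genes were tested, and 29 rose while none fell, against 9.6% up and 2.13% down of all genes. The list median was 0.95, against 0.25 for all genes, and all 42 differences were above 0. The count depended on the scaling: 8 rose after median-ratio scaling (1.51% of all genes rose there) and 15 after quantile normalization (1.98%), and 8 rises were firm. It also depended on single libraries, with 3 rises without Upf2 Cre replicate 5 or 6, 4 to 6 without Upf2 Trp53 Cre replicate 5 or 6 or Upf2 Cre replicate 8 or 9, 8 and 10 without Upf2 Trp53 Cre replicates 9 and 8, 17 without Upf2 Trp53 Cre replicate 3, and 36 without Upf2 Cre replicate 3. Without both libraries numbered 3, 38 rose, where 4461 of all 14647 tested genes rose.

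Aurka, a spindle pole kinase gene, had 137, 171 and 205 TPM in Upf2 Trp53 Cre, against 31.4, 46.6 and 157 TPM in Upf2 Cre and 100, 154 and 172 TPM in mock. In Upf2 Cre, replicates 3 and 4 were high, at 157 and 107 TPM, and the other 4 libraries lay under 50 TPM, so the groups overlapped through replicate 3. Its difference was 1.49 (adjusted p = 0.018), firm but lost without Upf2 Cre replicate 5 or 6. Ccnb1, which encodes the mitotic cyclin B1, showed the same order, with 72.8, 144 and 191 TPM in Upf2 Trp53 Cre and 24.1, 39.2 and 178 TPM in Upf2 Cre. The Ccnb1 difference of 1.46 (adjusted p = 0.035) missed the threshold of limma after median-ratio scaling (adjusted p = 0.070) and without most single libraries (adjusted p up to 0.088). Ube2c, which encodes the ubiquitin-conjugating enzyme of the anaphase-promoting complex, and Cdca8, a chromosomal passenger complex gene, did not overlap between groups: Ube2c averaged 224 ± 48.7 TPM in Upf2 Trp53 Cre and 110 ± 24.1 TPM in Upf2 Cre, and Cdca8 averaged 103 ± 12.2 and 53.6 ± 19.3 TPM in the same order (SD, n = 6 each). These 2 genes, with differences of 1.02 and 1.00, and the central spindle gene Prc1, with 1.27, were firm and kept their call without any single library. The proliferation marker gene Mki67 did not pass the test (105 ± 28.5 TPM in Upf2 Trp53 Cre, 72.2 ± 33.7 TPM in Upf2 Cre, difference 0.58, adjusted p = 0.11); without Upf2 Cre replicate 4, its highest library, it passed.

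The promoters of Ube2c and Prc1 are shown for the cell cycle genes homology region (CHR), the element through which the DREAM complex is known to act, searched as TTTGAA on both strands and printed in capitals (RefSeq, GRCm38.p6).
Ube2c (chr2:164769809-164769928, plus strand): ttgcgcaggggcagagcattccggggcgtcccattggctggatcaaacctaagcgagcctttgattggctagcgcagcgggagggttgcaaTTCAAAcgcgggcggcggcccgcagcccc
Prc1 (chr7:80294356-80294475, plus strand): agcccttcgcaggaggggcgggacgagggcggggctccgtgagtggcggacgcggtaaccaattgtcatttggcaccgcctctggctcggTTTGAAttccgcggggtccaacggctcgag
Of 34 G2 and M phase genes with a window 25 (73.5%) held this hexamer, against 13.5% of tested genes and 20.2% of all genes with a window. On the replication list 5 of 33 (15.2%) held it, and 1 of 24 break repair genes (4.17%). Being short, the hexamer is common by composition alone, and its presence shows no binding.

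Replication and repair genes followed the same direction with fewer calls. Of 40 tested G1/S and DNA replication genes 15 rose (37.5%) and 0 fell, against 9.6% and 2.13% of all genes, with a median of 0.70. After median-ratio and quantile scaling 2 and 5 rose, where 1.51% and 1.98% of all genes rose. As deposited, 0 rose without Upf2 Trp53 Cre replicate 5 or Upf2 Cre replicate 5. The counts were 1 to 3 without any other library numbered 6, 8 or 9, 9 and 18 without Upf2 Trp53 Cre replicates 3 and 4, 23 and 26 without Upf2 Cre replicates 4 and 3, and 30 without both numbered 3. The 2 firm rises were Cdc45 and Gins3, both parts of the replicative helicase. Cdc45 had 40.5, 58.5 and 67.5 TPM in Upf2 Trp53 Cre and 10.3, 16.3 and 49.5 TPM in Upf2 Cre (difference 1.48, adjusted p = 0.019), and Gins3 averaged 15.3 ± 3.80 and 7.07 ± 3.22 TPM in the same order (difference 1.06). Both calls were lost without Upf2 Trp53 Cre replicate 5 (adjusted p = 0.054 and 0.061). Mcm10, Rfc3 and Mcm6, also on this list, rose by 1.19, 1.28 and 1.02 as deposited. All of them missed the limma threshold after median-ratio scaling (adjusted p = 0.051, 0.052 and 0.067).

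Of 32 tested genes of DNA break repair and checkpoints 14 rose (43.8%), 5 of them firmly, and 0 fell (median 0.72). Over all genes 9.6% rose, 1.43% firmly. The rises on the list numbered 2 or 3 without any one library numbered 5, 6, 8 or 9. They numbered 7 without Upf2 Trp53 Cre replicate 3, and 23 without Upf2 Cre replicate 3. The Fanconi anaemia genes Fanci and Fancd2, whose products clamp damaged DNA as a pair, kept their calls without any single library. Fanci had 12.4, 26.6 and 28.9 TPM in Upf2 Trp53 Cre and 4.63, 7.33 and 19.1 TPM in Upf2 Cre (difference 1.42, adjusted p = 0.014), and Fancd2 averaged 13.7 ± 2.93 and 5.70 ± 2.88 TPM (difference 1.20, adjusted p = 0.015). Upf2 Trp53 Cre replicate 4 was the low library in both genes, and Upf2 Cre replicate 3 the high one. Brca1, a gene of homologous recombination, rose by 1.11 (adjusted p = 0.025), and its call was lost without any one of 7 libraries, with an adjusted p of up to 0.069. Of 28 tested microcephaly genes 12 rose (42.9%, against 9.6% of all genes) and 0 fell (median 0.62). In both other scalings 2 rose, where 1.51% and 1.98% of all genes rose, and after median-ratio scaling 1 fell, where 3.15% of all genes fell. As deposited, 0 to 2 rose without any one library numbered 5, 6, 8 or 9. The rises numbered 4 without Upf2 Trp53 Cre replicate 3, and 18 without Upf2 Cre replicate 3. Aspm, the spindle pole gene most often mutated in primary microcephaly, averaged 19.0 ± 4.65 TPM in Upf2 Trp53 Cre, 8.95 ± 3.35 TPM in Upf2 Cre and 20.1 ± 5.56 TPM in mock, a firm rise of 1.04 (adjusted p = 0.019; 0.057 without Upf2 Trp53 Cre replicate 5).

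Among 17 tested genes of D cyclins and the Rb pathway 2 rose and 0 fell, 11.8% up against 9.6% of all genes. Without Upf2 Cre replicate 3 the list had 6 rises and 3 falls, where 4868 and 1565 of all 14647 tested genes rose and fell. The 2 that rose with all 12 libraries were inhibitors of cyclin-dependent kinases 4 and 6. Both were firm and kept their call without any single library. Cdkn2a, the locus of p16 and of the p53 activator ARF, had 76.8, 106 and 152 TPM in Upf2 Trp53 Cre, against 32.3, 35.4 and 45.0 TPM in Upf2 Cre and 17.6, 46.4 and 67.2 TPM in mock, with no overlap between the Cre groups (difference 1.52, adjusted p = 7.09e-05). The Cdkn2a rise ran opposite to the Cdkn1a fall in the same libraries. A gene-level value does not separate the p16 and ARF transcripts of the locus. Cdkn2c, which encodes p18, averaged 110 ± 23.6 TPM in Upf2 Trp53 Cre and 45.0 ± 21.9 TPM in Upf2 Cre (difference 1.37, adjusted p = 0.0097). Ccnd1, which encodes cyclin D1, had 476, 1102 and 1355 TPM in Upf2 Trp53 Cre and 750, 1520 and 1878 TPM in Upf2 Cre, and did not pass the test (difference -0.49, adjusted p = 0.19); it passed as lower in Upf2 Trp53 Cre without Upf2 Cre replicate 3 (0.029) and without both libraries numbered 3 (0.030).

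**Figure D3:**
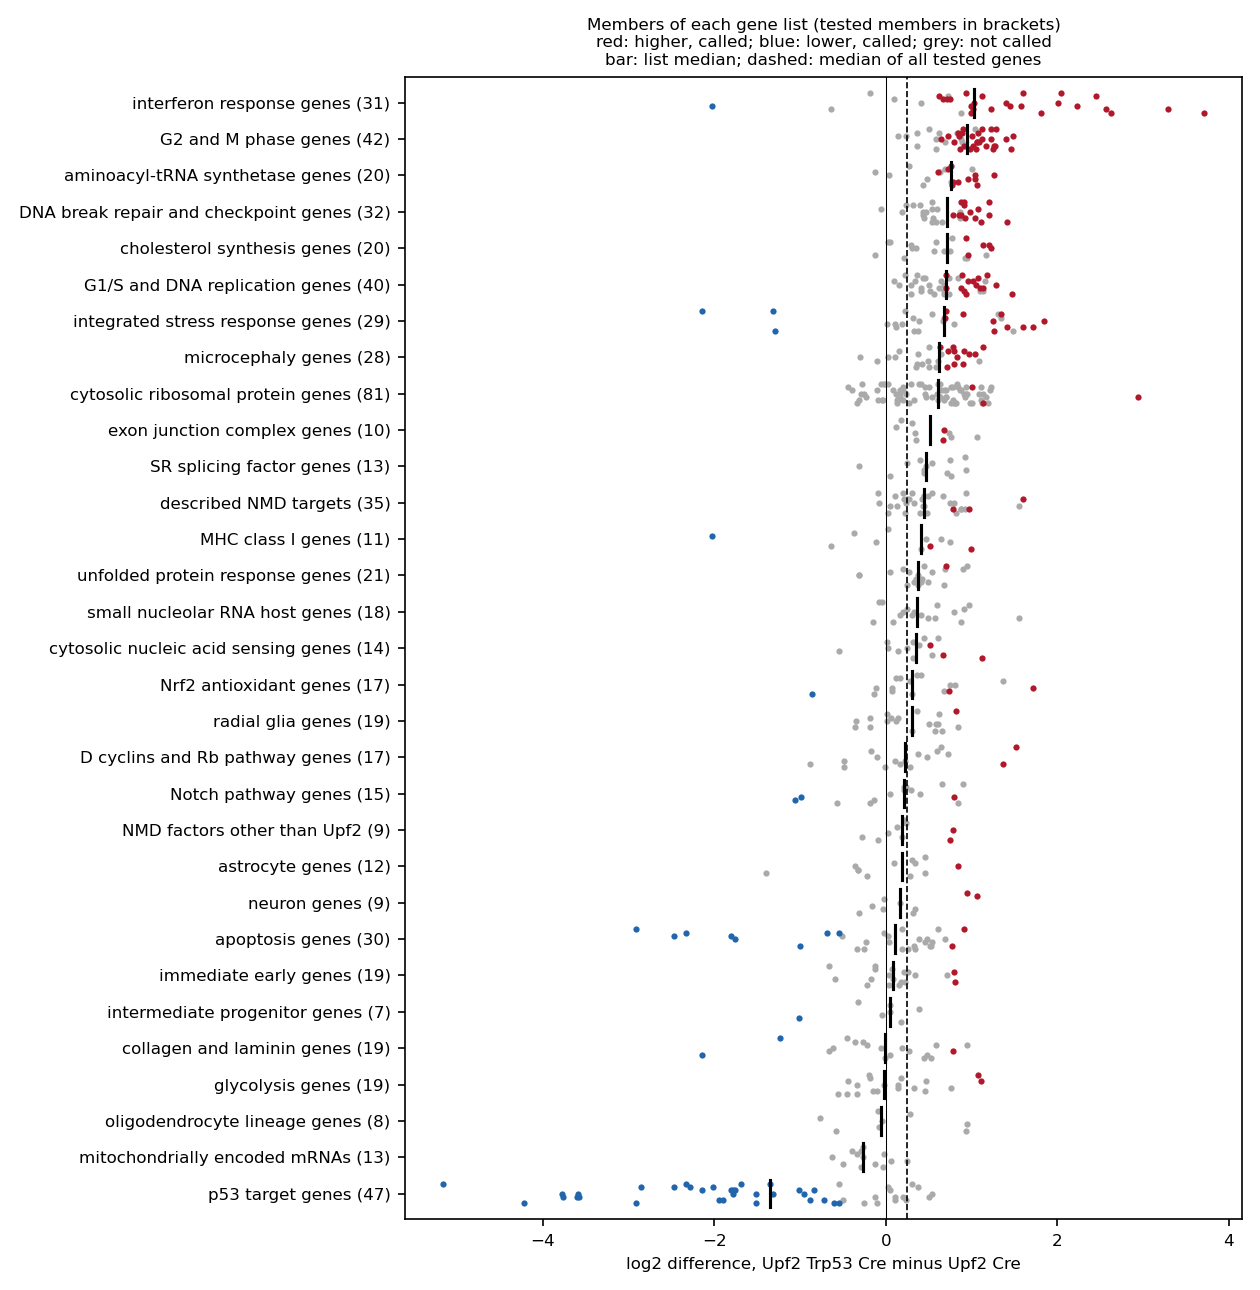
Log2 differences of the tested members of each gene list with at least 5 tested genes, as points, with the list median as a bar and the median of all tested genes (0.25) as a dashed line. The p53 target list has its median at -1.34 and the interferon response list at 1.03; most other lists lie between 0 and 1.

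Interferon response genes were higher in Upf2 Trp53 Cre. Of 47 list members 31 reached the minimum level. Among these, 24 rose, 18 of them firmly, and 1 fell, with a median of 1.03. Over all tested genes 9.6% rose, 1.43% firmly, 2.13% fell, and the median was 0.25. The minimum can be reached through the higher group alone, so these 31 are not the whole list. With no minimum 30 members rose, where 646 rose among all genes above 0 TPM in any of the 12 libraries. Without any single library 18 to 26 rose, and 26 without both libraries numbered 3. Isg15 (ENSMUSG00000035692.7, chr4:156199424-156200818), an interferon-induced ubiquitin-like modifier, had 41.6, 74.6 and 96.6 TPM in Upf2 Trp53 Cre, against 1.59, 4.74 and 5.80 TPM in Upf2 Cre and 0.655, 1.26 and 2.87 TPM in mock. Every Upf2 Trp53 Cre library lay far above every other library. The Isg15 difference was 3.71 ± 0.28 (SE, adjusted p = 8.02e-07).

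Chemokine and antiviral effector genes did the same. Cxcl10, a chemokine gene, had 23.4, 28.7 and 65.3 TPM in Upf2 Trp53 Cre and 1.44, 2.18 and 5.27 TPM in Upf2 Cre (difference 3.29, adjusted p = 2.53e-06). Oasl1 and Oasl2, of the oligoadenylate synthetase-like family, rose by 2.63 and 2.57, with 19.5 ± 4.57 and 7.32 ± 2.70 TPM in Upf2 Trp53 Cre against 2.38 ± 1.05 and 0.347 ± 0.136 TPM in Upf2 Cre (SD, n = 6 each). Ifit3, which binds viral RNA complexes, rose by 2.23 (adjusted p = 2.02e-05), and Rsad2, the viperin gene, chosen after its values were seen, rose by 2.45 (adjusted p = 4.04e-05). None of these 5 genes, nor Isg15, overlapped between the groups, and each kept its call without any single library. Upward differences without overlap held for 1.85% of all tested genes. Of 14 tested genes of cytosolic nucleic acid sensing 3 rose (21.4%, against 9.6% of all genes) and 0 fell. Rises numbered 6 without Upf2 Cre replicate 3 and 1 without any one library numbered 5, 6, 8 or 9. The only firm rise was Ddx58, which encodes the RNA sensor RIG-I and is itself interferon-induced, with 5.91 ± 1.63 TPM in Upf2 Trp53 Cre and 2.13 ± 0.669 TPM in Upf2 Cre (difference 1.12, adjusted p = 0.0058).

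The interferon-stimulated response element (ISRE), bound by STAT and IRF factors, was searched on both strands as GAAA, any 2 bases and GAAA. Windows of 3 genes above are shown as genes of the list that rose and hold a match, with matches in capitals (RefSeq, GRCm38.p6).
Isg15 (chr4:156200819-156200938, minus strand): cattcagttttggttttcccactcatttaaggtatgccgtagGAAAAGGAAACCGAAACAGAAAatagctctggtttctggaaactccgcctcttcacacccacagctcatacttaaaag
Ifit3 (chr19:34583347-34583466, plus strand): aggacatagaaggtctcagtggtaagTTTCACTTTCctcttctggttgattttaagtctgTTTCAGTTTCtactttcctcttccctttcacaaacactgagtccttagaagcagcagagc
Rsad2 (chr12:26456453-26456572, minus strand): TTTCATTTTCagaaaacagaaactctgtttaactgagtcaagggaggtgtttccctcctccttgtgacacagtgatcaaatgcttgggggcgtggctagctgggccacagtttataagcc
The Isg15 window holds 3 matches. A match was present in 11 of 23 list members with a window (47.8%), against 3.3% of tested genes with a window, 3.99% of all genes with a window, 1 of 34 G2 and M phase genes and 1 of 35 p53 targets.

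Of 11 tested MHC class I genes 2 rose and 1 fell (18.2% up against 9.6% of all genes, median 0.41); 1 rose without any one library numbered 5, 6, 8 or 9, 4 without Upf2 Trp53 Cre replicate 4 and 6 without Upf2 Cre replicate 3. Tap1, the peptide transporter gene, which is on the interferon list and is also known as a p53 target, was the 1 interferon list member that fell: it had 3.48, 4.72 and 6.48 TPM in Upf2 Trp53 Cre, against 6.68, 28.9 and 42.2 TPM in Upf2 Cre and 3.42, 4.08 and 6.73 TPM in mock (difference -2.03, adjusted p = 0.0054). Its neighbour Psmb8, an immunoproteasome gene, rose by 1.00 (adjusted p = 0.014). H2-D1, a class I heavy chain gene whose reads may be shared with related loci, averaged 46.2 ± 5.73 TPM in Upf2 Trp53 Cre and 31.8 ± 1.75 TPM in Upf2 Cre (difference 0.52, adjusted p = 0.030), and this call was lost in both other scalings. The summed level of 12 microglia markers was 13.6 to 38.3 TPM in Upf2 Trp53 Cre and 10.3 to 41.6 TPM in Upf2 Cre, with Aif1, C1qa, C1qb and Trem2 at 0 in all 12 libraries; 1 of the 12 was tested. The 8 vascular markers summed to 2.27 to 5.63 TPM and 1.08 to 2.21 TPM in the same order, and none was tested. The part of either cell type in the interferon difference was not tested.

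**Figure D4:**
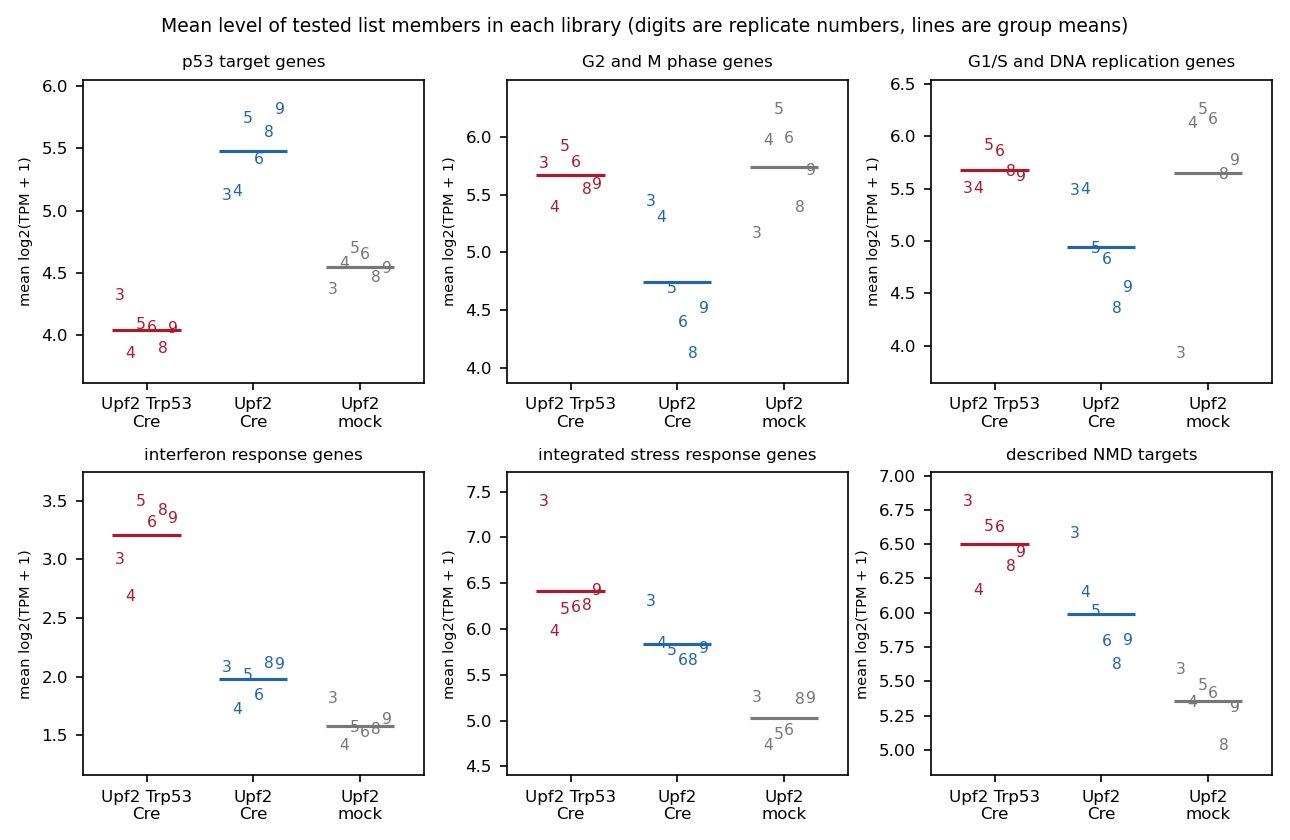
Mean log2(TPM + 1) over the tested members of 6 gene lists in each library, with replicate numbers as points and group means as lines. The interferon list lies at 2.68 to 3.49 in Upf2 Trp53 Cre, 1.72 to 2.12 in Upf2 Cre and 1.41 to 1.81 in mock, while for G2 and M phase genes the Upf2 Cre libraries 3 and 4, at 5.44 and 5.31, lie close to the Upf2 Trp53 Cre range of 5.39 to 5.92.

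The described NMD targets are transcripts that NMD is known to degrade. Among 35 of them, all tested, 3 rose and none fell, with a median of 0.44. The share up was 8.57%, against 9.6% of all genes. After median-ratio and quantile scaling 0 were called, where 1.51% and 1.98% of all genes rose and 3.15% and 3.1% fell. With the replicate numbers fitted as a block 17 rose, and 7 with median-ratio scaling as well. Of all tested genes 4339 and 1694 rose in these 2 fits. As deposited, 16 rose without Upf2 Cre replicate 3, 6 and 7 without the replicates numbered 4 of Upf2 Cre and Upf2 Trp53 Cre, and 0 or 1 without any other library. Over all 14647 tested genes 4868, 2020 and 3010 rose in the first 3 of these fits. The 3 targets that rose as deposited with all 12 libraries were Gadd45b, Atf3 and Smg1. Gadd45b, a stress sensor gene, had 31.9, 48.0 and 64.6 TPM in Upf2 Trp53 Cre, against 15.9, 22.2 and 39.9 TPM in Upf2 Cre and 2.07, 3.63 and 5.78 TPM in mock. The Cre groups overlapped through Upf2 Cre replicate 3, and both lay above all mock libraries (difference 0.97, adjusted p = 0.021, and 0.070 after median-ratio scaling). Smg5, which encodes a phosphatase adaptor of NMD, averaged 136 ± 24.8 TPM in Upf2 Trp53 Cre, 126 ± 29.5 TPM in Upf2 Cre and 51.6 ± 6.31 TPM in mock, and the Cre groups did not differ by the test (difference 0.13, adjusted p = 0.60). Upf3b, with 30.6 ± 5.74 and 29.8 ± 4.32 TPM in the Cre groups, had a difference of 0.03 (adjusted p = 0.90), which turned to -0.24 after median-ratio scaling.

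Among 9 NMD factors other than Upf2 the kinase gene Smg1 and its inhibitor Smg8 rose by 0.78 and 0.75 as deposited (adjusted p = 0.0496 and 0.043), and neither passed in the other scalings. Of 10 exon junction complex genes Eif4a3 and Rbm8a, which encode core subunits, both rose by 0.67 (adjusted p = 0.021 and 0.037), and neither passed after median-ratio scaling (0.11 and 0.12). As deposited 22.2% and 20.0% of these lists rose, against 9.6% of all genes. Without any one library numbered 5, 6, 8 or 9 both lists had 0 rises. Of 18 tested small nucleolar RNA host genes and 13 SR splicing factor genes 0 changed in limma as deposited or in either other scaling, with medians of 0.37 and 0.47, but 7 and 8 rose without Upf2 Cre replicate 3. Without Upf2 Trp53 Cre replicate 4 the counts were 3 and 2, and without Upf2 Cre replicate 4 they were 2 and 1. In these 3 fits 4868, 3010 and 2020 of all tested genes rose. Gas5, a host gene and NMD target, had 157, 227 and 359 TPM in Upf2 Trp53 Cre and 80.9, 110 and 323 TPM in Upf2 Cre (difference 0.87, adjusted p = 0.063) and passed without Upf2 Cre replicate 3 or Upf2 Trp53 Cre replicate 4.

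The integrated stress response slows translation and raises amino acid supply genes through the factor ATF4. Of its 29 tested genes 10 rose and 3 fell (34.5% and 10.3%, against 9.6% and 2.13% of all genes), with a median of 0.68. Firm changes were 2 of the rises and all 3 falls, against 1.43% and 2.04% of all genes. With the replicate numbers fitted as a block 17 rose, where 4339 of all tested genes rose. Without the block, the rises numbered 10 without Upf2 Cre replicate 4, 14 without Upf2 Trp53 Cre replicate 4, 16 without Upf2 Cre replicate 3, and 2 to 5 without any other library. Of the 3 falls 2 are also on the p53 target list, Sesn2 and Gdf15, a secreted stress cytokine gene that fell by 2.14 (adjusted p = 0.0097). Atf4 itself averaged 1085 ± 144 TPM in Upf2 Trp53 Cre, 883 ± 235 TPM in Upf2 Cre and 254 ± 66.2 TPM in mock, and the Cre groups overlapped (difference 0.33, adjusted p = 0.21; 0.05 on the log2 scale after median-ratio scaling). Ddit3, which encodes CHOP, did not pass either (difference 0.67, adjusted p = 0.15), with the replicates numbered 3 highest in both groups, at 147 and 106 TPM.

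The 2 firm rises of the list were those of Slc7a11 and Psph. Slc7a11, the cystine transporter gene, had 3.96, 8.27 and 18.2 TPM in Upf2 Trp53 Cre, against 0.918, 1.53 and 5.37 TPM in Upf2 Cre and 1.44, 2.82 and 3.57 TPM in mock (difference 1.72, adjusted p = 0.0067). Replicate 3 was the highest library in both Cre groups, and Slc7a11 kept its call without any single library. Psph, the last enzyme gene of serine synthesis, averaged 93.5 ± 34.9 TPM in Upf2 Trp53 Cre and 39.5 ± 18.2 TPM in Upf2 Cre (difference 1.25, adjusted p = 0.018; 0.053 without Upf2 Cre replicate 5). Psat1, the enzyme gene before it in that pathway, chosen after its values were seen, rose by 1.41 (adjusted p = 0.025; 0.056 after median-ratio scaling). Atf3, a stress transcription factor gene that is both a target of ATF4 and a described NMD target, had 11.98, 29.4 and 90.1 TPM in Upf2 Trp53 Cre and 5.26, 7.28 and 29.3 TPM in Upf2 Cre (difference 1.61, adjusted p = 0.037; 0.082 after median-ratio scaling). The aminoacyl-tRNA synthetase genes rose in 11 of 20 as deposited (55.0%, against 9.6% of all genes, median 0.76). After median-ratio scaling 0 rose, against 1.51% of all genes. As deposited, 0 or 1 of the synthetase genes rose without replicate 3, 5, 6, 8 or 9 of Upf2 Trp53 Cre or 5, 6, 8 or 9 of Upf2 Cre, and 17 without Upf2 Cre replicate 3. Among them Yars and Eprs, which charge tyrosine and glutamate with proline, rose by 0.73 and 1.04 (adjusted p = 0.022 and 0.034). The unfolded protein response list, with 21 tested genes, had 1 rise (4.76%, against 9.6% of all genes) and no fall. Its rises numbered 12 without Upf2 Cre replicate 3, 8 without Upf2 Trp53 Cre replicate 4, 4 without Upf2 Cre replicate 4 and 0 without any other library. Over all tested genes 4868, 3010 and 2020 rose in the first 3 of these fits.

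The C/EBP-ATF response element, through which ATF4 is known to act, was searched as TGATGNAA on both strands. Windows of Slc7a11 and Atf3 are shown as genes of the list that rose, with matches in capitals (RefSeq, GRCm38.p6).
Slc7a11 (chr3:50443614-50443733, minus strand): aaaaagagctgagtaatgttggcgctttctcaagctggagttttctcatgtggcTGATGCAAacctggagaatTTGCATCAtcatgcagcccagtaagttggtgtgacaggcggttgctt
Atf3 (chr1:191183334-191183453, minus strand): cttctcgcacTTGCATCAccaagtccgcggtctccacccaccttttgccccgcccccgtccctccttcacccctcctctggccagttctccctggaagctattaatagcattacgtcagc
Matches were present in 8 of 26 stress response genes (30.8%) and 5 of 12 synthetase genes (41.7%) with a window, against 2.65% of tested genes and 4.51% of all genes with a window.

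**Figure D5:**
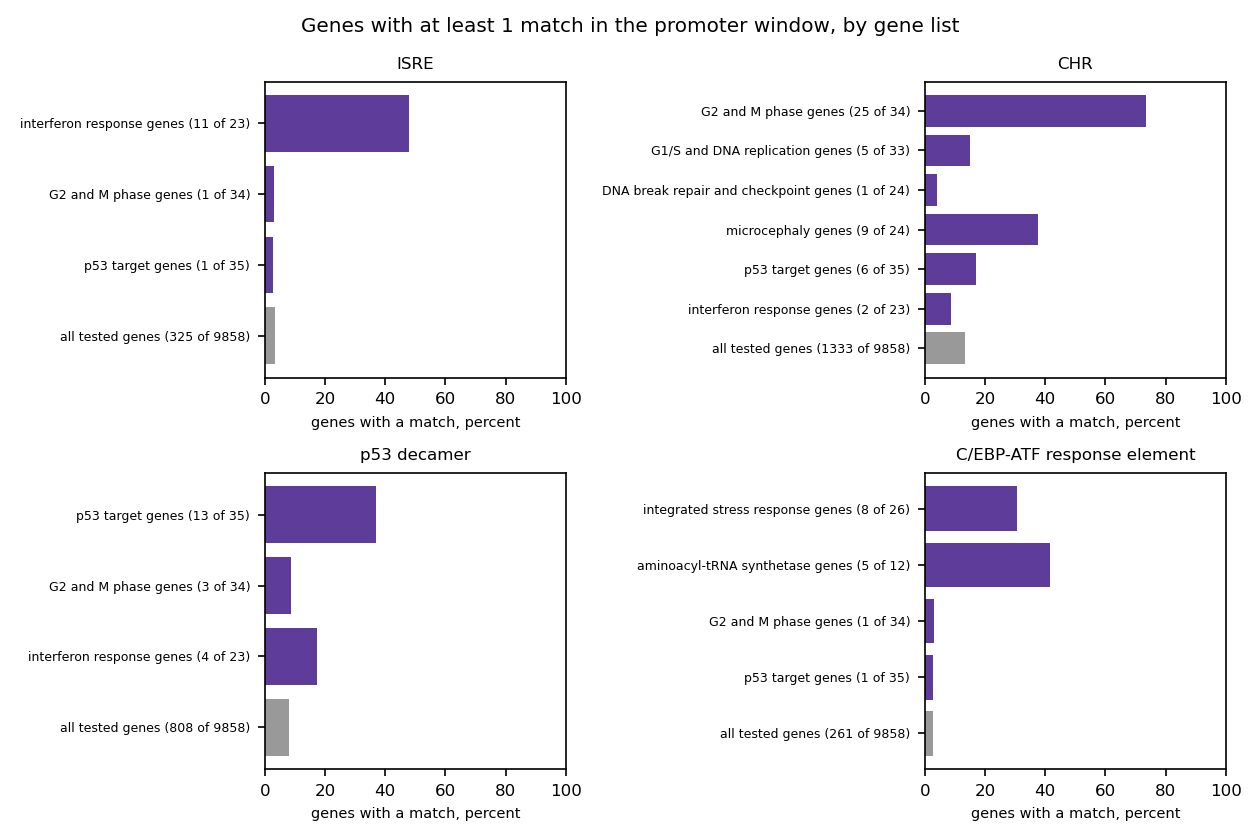
Percent of genes with at least 1 match in the promoter window for each of 4 motifs, by gene list, with all tested genes in grey and counts in brackets. The ISRE was found in 47.8% of interferon response genes against 3.3% of tested genes, and the CHR hexamer in 73.5% of G2 and M phase genes against 13.5%.

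The largest rises were mostly unrelated to these lists. The 12 largest among genes without overlap were Rab3b, Mir7688, Gm6344, Isg15, Cxcl10, AA465934, Six3os1, Rpl29, Gm10709, Six3, Mid1-ps1 and Oasl1, and all 12 were firm. Among them Mir7688, Six3os1, Six3 and Mid1-ps1 reached the minimum level through Upf2 Trp53 Cre alone. Rab3b, a small GTPase gene of regulated exocytosis (ENSMUSG00000003411.10, chr4:108879063-108943324), had 169, 215 and 249 TPM in Upf2 Trp53 Cre, against 1.56, 7.87 and 15.9 TPM in Upf2 Cre and 2.20, 3.61 and 4.72 TPM in mock (difference 4.95, adjusted p = 8.43e-07). The forebrain and eye homeobox gene Six3 had 6.99, 8.99 and 14.4 TPM in Upf2 Trp53 Cre, against 0.197, 0.328 and 0.829 TPM in Upf2 Cre, and its overlapping opposite-strand transcript Six3os1 had 9.45, 10.8 and 16.6 TPM against 0.130, 0.483 and 0.820 TPM. Mock levels of both were at most 0.607 TPM, as low as those of Upf2 Cre, and reads of overlapping genes may not be fully separated. AA465934, a noncoding transcript on chromosome 11, averaged 228 ± 46.8 TPM in Upf2 Trp53 Cre, 24.3 ± 2.35 TPM in Upf2 Cre and 19.2 ± 2.13 TPM in mock (SD, n = 6 each).

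Mir7688, a microRNA gene on chromosome 10 (chr10:93433107-93433162), was listed at 7.93, 25.2 and 34.5 TPM in Upf2 Trp53 Cre and at 0 in all 6 Upf2 Cre and all 6 mock libraries, so no fold is given. Reads of its host region may be counted in this row. Its mature arms are shown as the identity of that row, with the seed (bases 2 to 8) in capitals (RefSeq, GRCm38.p6).
mmu-miR-7688-5p (chr10:93433107-93433129, plus strand): uAGCUGGGcaugaucugaugagc
mmu-miR-7688-3p (chr10:93433142-93433162, plus strand): uCUGGCUUaugccuagcuuuc

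Ribosomal protein gene Rpl29 and 2 of its processed copies rose, while a further copy, Gm8210, fell. Rpl29 averaged 2050 ± 251 TPM in Upf2 Trp53 Cre, 279 ± 115 TPM in Upf2 Cre and 417 ± 27.0 TPM in mock, and Gm6344 and Gm10709 rose with it by 3.80 and 2.93. Gm8210 had 6.03, 8.27 and 9.76 TPM in Upf2 Trp53 Cre, against 377, 417 and 952 TPM in Upf2 Cre and 753, 822 and 953 TPM in mock (difference -5.71, adjusted p = 8.36e-10). These copies match Rpl29 transcripts at 99.379% (Gm6344 and Gm8210) and 99.167% (Gm10709) of aligned bases, so reads may be split among them and the single values are uncertain. The sum of Rpl29, Gm6344, Gm8210, Gm10709 and Gm14036 was 2140 ± 255 TPM in Upf2 Trp53 Cre, 788 ± 339 TPM in Upf2 Cre and 1260 ± 90.2 TPM in mock. Tma7-ps, whose sequence matches the translation machinery gene Tma7 at 98.974%, fell to 16.1 ± 4.36 TPM in Upf2 Trp53 Cre, against 399 ± 237 TPM in Upf2 Cre and 844 ± 209 TPM in mock. Tma7, chosen after its values were seen, rose by 1.36, and the summed level of both was 203 ± 53.3 TPM in Upf2 Trp53 Cre, 477 ± 282 TPM in Upf2 Cre and 998 ± 240 TPM in mock. Mid1-ps1, annotated on the Y chromosome with 99.562% identity to Mid1 on the X, averaged 9.36 ± 1.92 TPM in Upf2 Trp53 Cre and 0.399 ± 0.0919 TPM in Upf2 Cre. For Gm8210, Tma7-ps and Mid1-ps1 the mock libraries lay on the side of the Upf2 Cre libraries, as they also did for Rab3b, AA465934, Six3 and Mir7688. The part of the line and of Trp53 loss in these differences was not tested. Among 81 tested cytosolic ribosomal protein genes 3 rose (3.7%, against 9.6% of all genes), with Rpl29 as the single firm rise (median 0.60). The rises numbered 21 without Upf2 Trp53 Cre replicate 4, 50 without Upf2 Cre replicate 3, and 1 or 2 without any other library. Over all tested genes 3010 rose in the first of these fits and 4868 in the next.

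Markers of cell identity mostly did not pass the test. Of 19 tested radial glia genes 1 rose (5.26%, against 9.6% of all genes) and 0 fell, with a median of 0.31, against 0.25 for all genes. In the other scalings 0 changed. With the replicate numbers fitted as a block 8 rose, where 4339 of all tested genes rose. As deposited, 7 rose without Upf2 Cre replicate 3, 4 without Upf2 Trp53 Cre replicate 4, and 0 without any other library except Upf2 Cre replicate 4. Of all 14647 tested genes, 4868 rose without Upf2 Cre replicate 3 and 3010 without Upf2 Trp53 Cre replicate 4. Sox2, a stem cell factor gene, averaged 164 ± 43.0 TPM in Upf2 Trp53 Cre and 130 ± 18.5 TPM in Upf2 Cre (difference 0.31, adjusted p = 0.22), and Pax6 averaged 6.63 ± 2.42 and 4.17 ± 2.12 TPM in the same order (difference 0.59, adjusted p = 0.099). Slc1a3, whose product takes up glutamate in radial glia, was the one that rose, by 0.82 (adjusted p = 0.041; 0.12 after median-ratio scaling). The cortical transcription factor gene Emx1 was at most 0.044 TPM in any library.

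Of 9 tested neuron genes 2 (22.2%) rose firmly, against 1.43% of all genes: the synaptic gene Snap25 and the neurofilament gene Nefm. They had 4.35 ± 0.720 and 7.29 ± 2.38 TPM in Upf2 Trp53 Cre against 1.85 ± 0.871 and 2.92 ± 0.951 TPM in Upf2 Cre (SD, n = 6 each). Their differences were 0.95 and 1.06 (limma adjusted p = 0.012 and 0.014). The list as a whole did not rise beyond all genes: its median was 0.17, against 0.25. After median-ratio and quantile scaling the list median was 0.02 and -0.06. Of the 9 tested members 5 were higher in Upf2 Trp53 Cre, and the lowest was at -0.31. The list has 17 members, and the others did not reach the minimum level. Tubb3, the neuronal tubulin gene, did not pass (difference 0.31, adjusted p = 0.46), with 40.3 to 168 TPM in Upf2 Cre around 76.2 to 108 TPM in Upf2 Trp53 Cre. Of 12 astrocyte genes 1 rose, S100b (difference 0.84, adjusted p = 0.048; 0.16 after median-ratio scaling), and of 8 oligodendrocyte lineage genes 0 changed; without Upf2 Cre replicate 3, 2 of each list fell. Dlx2, a homeobox gene of ventral forebrain progenitors and interneurons, had 2.00, 4.22 and 6.69 TPM in Upf2 Trp53 Cre and 0.0635, 0.226 and 0.527 TPM in Upf2 Cre (difference 2.05, adjusted p = 4.52e-05). Dlx2 reached the minimum level through Upf2 Trp53 Cre alone, so this p-value is a description and no independent test. The summed level of 8 interneuron markers was 6.39 to 11.5 TPM in Upf2 Trp53 Cre, 1.55 to 2.89 TPM in Upf2 Cre and 1.32 to 7.0 TPM in mock. Of these 8 markers 2 were tested and 1 was called.

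In signalling, matrix and metabolic lists the share that rose ran from 0.0% of mitochondrially encoded mRNAs to 25.0% of cholesterol synthesis genes. Over all genes 9.6% rose and 2.13% fell. Without Upf2 Cre replicate 3 the rises numbered 5 (Notch), 4 (collagen and laminin), 7 (Nrf2) and 3 (glycolysis), and collagen and laminin falls 6. Without any one library numbered 5, 6, 8 or 9 they had at most 1 call in either direction, and without Upf2 Trp53 Cre replicate 4 there were 3 Notch and 6 Nrf2 rises. Of all tested genes, 4868 rose and 1565 fell without Upf2 Cre replicate 3, and 3010 rose without Upf2 Trp53 Cre replicate 4. Of 15 Notch pathway genes 2 fell firmly and 1 rose: Hes6, an inhibitor of Hes1, averaged 133 ± 40.8 TPM in Upf2 Trp53 Cre and 290 ± 110 TPM in Upf2 Cre (difference -1.06, adjusted p = 0.035), and the receptor gene Notch3 averaged 48.2 ± 10.4 and 104 ± 43.7 TPM in the same order (difference -0.99, adjusted p = 0.040). Both were lost without most single libraries (adjusted p up to 0.10). Of 19 collagen and laminin genes 2 fell and 1 rose. Col18a1, a basement membrane collagen gene, had 2.93, 7.74 and 10.8 TPM in Upf2 Trp53 Cre, against 10.9, 41.5 and 65.8 TPM in Upf2 Cre and 1.18, 2.26 and 3.61 TPM in mock, a firm fall of 2.14 (adjusted p = 0.0054). Of 17 Nrf2 antioxidant genes 2 rose and 1 fell, the last being Nfe2l2, which encodes the factor Nrf2 itself (34.1 ± 12.4 TPM in Upf2 Trp53 Cre, 61.7 ± 16.1 TPM in Upf2 Cre, difference -0.86, adjusted p = 0.037). Of 20 cholesterol synthesis genes 5 rose, among them Cyp51 and Fdft1 by 1.23 and 1.20 (adjusted p = 0.033 and 0.034), and 0 rose after median-ratio scaling or without any one library numbered 5, 6, 8 or 9, while 2 rose without Upf2 Trp53 Cre replicate 3 and 11 without Upf2 Cre replicate 3 or 4. Of 19 glycolysis genes 2 rose, of 19 immediate early genes 2 rose, and of 13 mitochondrially encoded mRNAs 0 changed (median -0.27), while 4 fell without Upf2 Cre replicate 3.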

How the data were processed

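RNA of 18 cultures was made into stranded total RNA libraries, per the labels' protocols. The submitters' processing notes name STAR and the mm10 build; the quantification tool is not given in the sources used here. The authors deposited 1 table of TPM for 55573 genes, in which every library sums to 1000000, so read depth is unknown and no counting interval is given. The Ensembl IDs of 55480 genes matched GENCODE M21 without version.

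Differences were fitted with limma 3.58.1 (R 4.3.3) on log2(TPM + 1) with a mean-variance trend, using the 12 Cre libraries and genes of at least 1 TPM in at least 6 of them, with Benjamini-Hochberg adjustment over all 14647. On simulated data of this design the fit recovered 60% of genes changed by 1.0 on the log2 scale and 92% of those changed by 2.0 (50 genes each of 14647). The simulated noise was independent for each gene and library. These rates therefore leave out spread shared across genes of a library, and do not give the sensitivity in the real libraries. Trp53 and Upf2 were also tested by exact permutation. Named genes are the 12 largest rises and 12 largest falls among called genes without overlap whose higher group mean was at least 5 TPM, up to 5 genes a list by smallest adjusted p, and genes set in advance; others are said to be chosen after their values were seen, and some named genes are not reported here. The members and the 36 gene lists were chosen with earlier results of these data known. Pseudocount, filter, scaling, trend, replicate block and single libraries were varied. Pseudogenes were aligned with BLAST 2.17.0, and figures drawn with Matplotlib 3.10.9.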

Additional observations from a re-analysis of the deposited data

Results flagged for a closer look

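A library was singled out where its gap to the nearest other of its group, divided by the range of the group, was above Dixon's 95% critical value for 6 samples. This held for 22 of 192 group values examined, and chance flags about 1 in 20 groups. Upf2 Cre replicate 3 was the highest library in 7 of them, Upf2 Trp53 Cre replicate 3 the highest in 4 and the lowest in 3, and Upf2 Trp53 Cre replicate 4 the lowest in 4.

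In Upf2 Trp53 Cre, replicate 3 stood high for Cdkn1a (gap ratio 0.6797), Gm37795 (0.6803), 9530053A07Rik (0.7374) and Ddit3 (0.6932), and low for Ccnd1 (0.719), Eif4a3 (0.7131) and AA465934 (0.6735). Replicate 4 stood low for the replication factor gene Rfc3 (0.6987), Fanci (0.8858), Fancd2 (0.8758) and Ddx58 (0.6975). Replicate 5 stood high for Cxcl10 (0.7315).

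In Upf2 Cre, replicate 3 stood high for Rfc3 (0.6271), Oasl2 (0.6477), Ddx58 (0.6672), Ddit3 (0.8077), Pax6 (0.6268), Rpl29 (0.6913) and Gm8210 (0.8146). Replicate 4 stood high for Mki67 (0.6474) and low for Isg15 (0.6699), and replicate 9 stood high for Six3 (0.6811).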

How the results depend on the processing

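Of 84 called genes named here, 53 kept their call under every alternative that gave them a value, 35 of these under all 23, and 31 lost it under at least 1; none of the 84 reversed. Rises over all genes, 1406 as reported, numbered 646 with no filter, 221 and 290 with median-ratio and quantile scaling, and 208 to 4868 without single libraries; falls, 312 as reported, numbered 124 to 1565. Without both libraries numbered 3, chosen after seeing the data, 4461 rose and 1296 fell. The replicate block gave 4339 rises and 1119 falls, and 2438 falls with median-ratio scaling as well. Same-numbered libraries correlated at -0.0304 to 0.7534, with 5 of 6 pairs over 0.1, and 7 of 12 libraries correlated best with their own number. The numbers were not taken as pairs because not every pair was over 0.1 and the labels do not say what a number marks. Whether same-numbered libraries share a source was not tested. A gene not called without the block is therefore not shown to be unchanged.

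In the order no filter, median-ratio, quantile and replicate block, G1/S rises were 3, 2, 5 and 29, microcephaly rises 3, 2, 2 and 20, NMD target rises 1, 0, 0 and 17, stress response rises 4, 2, 5 and 17, and radial glia rises 0, 0, 0 and 8. G2 and M phase rises were 8, 8 and 15 under the first 3. With all 18 libraries G1/S rises were 8 and NMD target rises 5. Without both numbered 3, G1/S rises were 30, NMD target rises 16 and radial glia rises 7. The block with median-ratio scaling gave 7 NMD target and 4 radial glia rises. A mean of at least 5 TPM gave 10 interferon and 2 radial glia rises. Without single libraries the counts ran from 0 to 26 (G1/S), 3 to 36 (G2 and M phase), 0 to 18 (microcephaly), 0 to 16 (NMD targets), 2 to 16 (stress response), 18 to 26 (interferon), 0 to 7 (radial glia) and 27 to 35 (p53 falls), and the differences from -3.08 to -2.86 (Trp53) and 0.61 to 0.79 (Upf2). The cause of these shifts was not tested.

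Uncalled differences that changed sign were Smg5, at -0.15 with median-ratio scaling with or without the block, and Upf3b, at -0.24 under the same settings, -0.17 with quantile normalization, -0.0141 without both numbered 3, -0.0138 with protein-coding genes rescaled, and -0.0404 to 0.0892 without single libraries. Read depth is unknown, which limits what can be said of genes near 1 TPM.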

Other observations

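The genes below were chosen after their values were seen, and say nothing of cilia genes or homeobox genes as groups. Foxj1, the master regulator gene of motile cilia, had 18.5, 33.2 and 38.7 TPM (lowest, median and highest library) in Upf2 Trp53 Cre and 27.5, 126 and 193 TPM in Upf2 Cre, with overlapping groups (difference -1.70, limma adjusted p = 0.029). The axonemal dynein gene Dnaic1 and Ccdc153 fell by 1.55 and 1.34 (limma adjusted p = 0.014 and 0.034). All 3 falls were firm, but those of Foxj1 and Ccdc153 were lost without any one of 8 and 9 libraries.

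Otx2, a homeobox gene of forebrain and midbrain, had 3.08, 4.80 and 7.17 TPM in Upf2 Trp53 Cre and 0.0734, 0.134 and 0.451 TPM in Upf2 Cre (difference 2.26). En2, a homeobox gene of midbrain and hindbrain, had 4.29, 9.59 and 14.6 TPM in Upf2 Trp53 Cre and 1.20, 2.13 and 2.82 TPM in Upf2 Cre (difference 1.68). Neither gene overlapped between groups, and Otx2 reached the minimum level through Upf2 Trp53 Cre alone.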
